A study of Mus musculus with 45 samples.

Results

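The 5xFAD transgenes were examined at 4 months of age in the hippocampus of mice whose myeloid cells carry Csf1r-Cre. Of the 45 libraries in the series, 10 enter this comparison, chosen by their sample titles: 4 from Apoe(fl/fl) 5xFAD Csf1r-cre mice and 6 from Apoe(fl/fl) Csf1r-cre mice, all C57BL/6. Both groups carry homozygous floxed Apoe and Csf1r-Cre, so Apoe is deleted from Cre-expressing cells in both, and the 5xFAD transgenes are the labelled difference. Csf1r-Cre acts in microglia and in other cells of the myeloid lineage, and astrocytes, the other main source of apolipoprotein E in the brain, keep their floxed gene. The other groups used here are 5xFAD with floxed Apoe and no Cre (n = 5) and its control without either transgene (n = 8) at 4 months, and 5xFAD Csf1r-Cre (n = 5) and Csf1r-Cre (n = 7) at 12 months. The labels give no sex and do not state whether the numbered libraries of a group are separate animals, so the p-values cover library-to-library spread, which may be technical.

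5xFAD mice express human transgenes with familial Alzheimer's disease mutations, APP among them, from the Thy1 promoter in neurons and deposit amyloid from an early age. Microglia that surround plaques are known to take on a state in which the receptor Trem2, signalling through its adaptor Tyrobp, is followed by a rise of genes such as Cst7, Clec7a, Itgax and Ccl6, while homeostatic genes such as P2ry12 and Tmem119 tend to fall. Apoe is itself among the genes of that state, and in mice with Csf1r-Cre the microglia should be unable to make it.

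Expression is given as TPM, a level scaled for gene length and library total. The reads in genes, recovered as the smallest whole numbers that fit the TPM values, came to 13671005 to 17598748 in the 10 libraries. The noncoding transcript Gm23935 took 9.38% to 14.6% of TPM in the 5xFAD Csf1r-Cre libraries and 4.36% to 24.1% in the Csf1r-Cre libraries. Sex-linked transcripts differed among the libraries of both groups, with the X-inactivation transcript Xist above 1 TPM in 1 of 4 and 3 of 6 libraries and the Y-linked Ddx3y above 5 TPM in 3 of 4 and 3 of 6. Fold changes are log2 differences of TPM + 0.5 from a limma model with 1 mean per group, and p-values were adjusted over all 18659 genes tested. In bulk tissue, more cells of a type and more RNA per cell cannot be told apart.

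Ccl6 was the only gene that passed the test in the limma model (adjusted p under 0.05), and it was higher with 5xFAD. This is 1 of 18659 genes, or 0.00536%. No gene was lower. An unadjusted p under 0.05 was reached by 959 genes, 5.14% of those tested (574 higher, 3.08%, and 385 lower, 2.06%). A threshold of 0.05 gives about that share when no gene differs. Ccl6 encodes a CC chemokine made by myeloid cells. The lists of plaque-associated microglia, of Trem2 and Fc receptor signalling and of complement had median log2 fold changes above that of all genes, and Ccl6 was the one member that passed. Most of these genes were highest in 5xFAD Csf1r-Cre libraries 1 and 4.

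Ccl6 (ENSMUSG00000018927, mm10 chromosome 11, 83587882 to 83593087, minus strand) stood at 75.5, 13.9, 15.1 and 87.2 TPM in 5xFAD Csf1r-Cre libraries 1 to 4. The 6 Csf1r-Cre libraries ranged from 3.02 to 7.83 TPM with a median of 4.25 TPM. Every 5xFAD library was above every control, but libraries 1 and 4 were several times higher than libraries 2 and 3. The log2 fold change was 2.78 ± 0.44 (SE, n = 4 and 6, 95% interval 1.89 to 3.67), with a limma adjusted p of 0.00258. The call depended on single libraries and on the fit: the adjusted p was 0.123 without 5xFAD Csf1r-Cre library 1 and 0.0713 without library 4. It was 0.0731 in a fit on the 4-month groups and 0.212 in a fit on the compared groups alone.

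Cst7 (ENSMUSG00000068129, mm10 chromosome 2, 150570415 to 150578944, plus strand), which encodes cystatin F, an inhibitor of lysosomal cysteine proteases, was likewise highest in libraries 1 and 4. It stood at 11.9, 2.68, 2.30 and 19.5 TPM in the 5xFAD libraries and at 0.298 to 1.83 TPM, median 0.488 TPM, in the Csf1r-Cre libraries. The groups did not overlap, and the log2 fold change of 2.57 ± 0.51 (SE) missed the threshold in limma (adjusted p = 0.0934). Across all genes, 192 (1.03%) were higher in every 5xFAD library than in any control and 186 (0.997%) were lower in the same sense. With 5xFAD Csf1r-Cre library 2, library 3 or Csf1r-Cre library 4 left out, Cst7 passed in limma, with adjusted p of 0.0239, 0.0135 and 0.0442.

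The promoters of these 2 genes, which had the largest fold changes among the microglial lists, are printed because both genes are made by myeloid cells. They run from 250 bases before to 50 bases after the transcript start, 5′ to 3′ on the gene's strand, as given by RefSeq for GRCm38.p6, the assembly that mm10 represents. Capitals mark GGAAGT or its reverse complement ACTTCC, a core bound by factors of the ETS family, to which the myeloid factor PU.1 belongs.
Ccl6, chr11:83593038-83593337, minus strand: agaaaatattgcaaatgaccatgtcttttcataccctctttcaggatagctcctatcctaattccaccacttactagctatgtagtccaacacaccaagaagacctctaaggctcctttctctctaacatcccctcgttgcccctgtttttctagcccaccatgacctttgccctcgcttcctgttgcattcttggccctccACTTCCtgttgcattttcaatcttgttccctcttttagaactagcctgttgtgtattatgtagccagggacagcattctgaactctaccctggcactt
Cst7, chr2:150570165-150570464, plus strand: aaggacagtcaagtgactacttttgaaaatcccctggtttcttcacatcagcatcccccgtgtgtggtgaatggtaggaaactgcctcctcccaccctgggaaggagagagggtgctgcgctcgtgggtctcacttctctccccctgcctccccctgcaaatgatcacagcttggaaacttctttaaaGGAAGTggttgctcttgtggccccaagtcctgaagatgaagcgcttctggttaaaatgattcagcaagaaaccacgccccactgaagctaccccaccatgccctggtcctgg
Each window held 1 match, and the windows of Trem2 and Clec7a held 0. Of 12674 tested genes with a promoter in that table, 3765 (29.7%) held at least 1 match on either strand. Matches were present in 10 of 28 plaque-associated genes with a promoter (35.7%), in 5 of 12 homeostatic genes (41.7%), in 7 of 11 genes of the receptor signalling list (63.6%) and in 3 of 9 complement genes (33.3%). A match of 6 letters is a description of these windows and not a binding site.

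**Figure D1:**
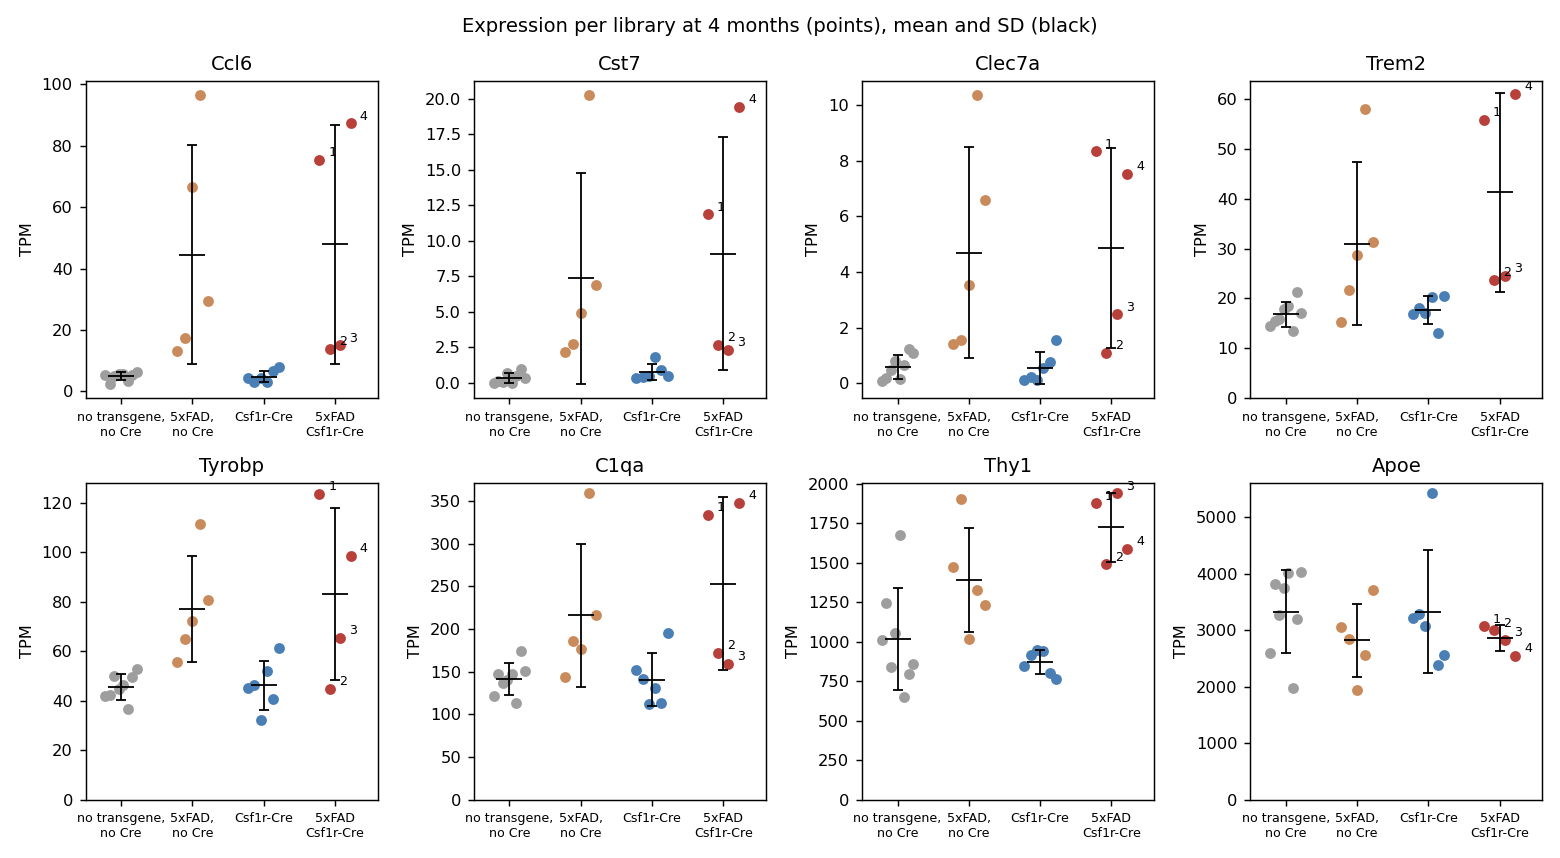
TPM of 8 genes in each library of the 4 groups at 4 months (points), with the mean and SD in black; the 5xFAD Csf1r-Cre libraries carry their numbers. Among the 4 numbered libraries, Ccl6, Cst7, Clec7a, Trem2, Tyrobp and C1qa were highest in libraries 1 and 4, and Thy1 stood at 1488 to 1939 TPM. Apoe overlapped between the groups.

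The plaque-associated list held 35 genes, all of them expressed above the filter. Of these, 1 (Ccl6) passed the test, 26 (74.3%) had a fold change above 0 and the median log2 fold change was 0.39. Over all genes tested 37.4% lay above 0 and the median was -0.10. An unadjusted p under 0.05 was reached by 14 of the 35, all higher, against 3.08% of all genes. The list was chosen with earlier results of these data known, so these counts describe it and are not a test.

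Clec7a, which encodes the β-glucan receptor dectin-1, stood at 8.34, 1.09, 2.48 and 7.54 TPM in 5xFAD libraries 1 to 4. The Csf1r-Cre libraries held 0.0966 to 1.57 TPM, with a median of 0.379 TPM. Library 2 lay within the control range and the other 3 above it (log2 fold change 2.18 ± 0.49, SE, limma adjusted p = 0.147). Itgax, the integrin chain CD11c, stood at 3.85, 0.905, 1.43 and 2.51 TPM against 0.232 to 0.802 TPM, median 0.531 TPM. All 4 libraries were above the controls, at a log2 fold change of 1.27 ± 0.43 (SE, limma adjusted p = 0.712). Cd68, a lysosomal membrane glycoprotein of phagocytes, stood at 32.6, 16.3, 17.5 and 26.1 TPM against 8.04 to 13.98 TPM, median 10.1 TPM, and again did not overlap (limma adjusted p = 0.619).

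Among receptors and their signalling, Trem2, the lipid and amyloid receptor of microglia, stood at 55.8, 23.7, 24.5 and 61.1 TPM. In the Csf1r-Cre libraries it ranged from 13.01 to 20.5 TPM with a median of 17.6 TPM. The groups did not overlap, and the log2 fold change was 1.08 ± 0.27 (SE, limma adjusted p = 0.28). Tyrobp, the adaptor that carries the Trem2 signal, stood at 123.5, 44.9, 65.4 and 98.6 TPM against 32.2 to 61.2 TPM, median 45.7 TPM. Library 2 was inside the control range for Tyrobp, and its log2 fold change was 0.76 ± 0.23 (SE, limma adjusted p = 0.619).

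The Fc receptor chains behaved alike. Fcgr3, an IgG receptor, stood at 42.5, 20.4, 20.3 and 41.8 TPM against at most 20.8 TPM in the controls, and Fcer1g, the shared signalling chain, at 125.8, 42.0, 41.9 and 107.9 TPM against at most 48.9 TPM. In both, libraries 1 and 4 were above all controls and libraries 2 and 3 were not. Of the 16 genes of this list 14 lay above 0 and 8 were higher at an unadjusted p under 0.05, against 37.4% and 3.08% of all genes. Of the 16, 0 passed in limma, and the median log2 fold change was 0.62.

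The chemokine list had 14 of its 16 genes above the filter, and Ccr1 and Ccr2 were left out as too low. Ccl3 and Ccl4, chemokines that activated microglia release, were low in the Csf1r-Cre libraries, at most 1.11 and 1.87 TPM. Ccl3 stood at 11.3, 0.861, 1.34 and 7.27 TPM with 5xFAD and Ccl4 at 7.12, 1.44, 1.11 and 4.96 TPM. For both genes libraries 1 and 4 were above every control, and neither passed (limma adjusted p = 0.683 and 0.524). Of the 14 genes tested 12 lay above 0, against 37.4% of all genes, and Ccl6 alone passed.

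Genes of homeostatic microglia did not lie lower with 5xFAD. Of 18, 15 lay above 0 and 5 were higher at an unadjusted p under 0.05, against 37.4% and 3.08% of all genes. In limma 0 of the 18 passed, and the median log2 fold change was 0.39. Olfml3, a secreted glycoprotein, stood at 43.0, 26.8, 19.8 and 44.3 TPM against 14.1 to 20.04 TPM. Gpr34, a lysophospholipid receptor, stood at 23.3, 12.1, 16.0 and 31.0 TPM against 8.80 to 12.6 TPM. Library 3 was inside the control range for Olfml3 and library 2 for Gpr34 (limma adjusted p = 0.524 and 0.668). P2ry12, the purinergic receptor of resting microglia, and Tmem119, a microglial surface marker, are named here outside the rule for named genes. P2ry12 stood at 28.0, 27.3, 24.6 and 44.99 TPM against 14.3 to 32.4 TPM, and Tmem119 at 43.4, 40.6, 31.6 and 55.4 TPM against 21.7 to 38.6 TPM. The groups overlapped in both, and their log2 fold changes were 0.30 ± 0.25 and 0.45 ± 0.23 (SE). Csf1r, the receptor whose promoter drives the Cre, stood at 43.5, 25.1, 29.1 and 31.7 TPM against 12.96 to 34.5 TPM (limma adjusted p = 0.9).

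The classical complement genes C1qa and C1qc were highest in libraries 1 and 4 too. C1qa, a chain of the C1q recognition molecule, stood at 333.7, 171.9, 159.1 and 348.0 TPM against 112.1 to 195.0 TPM, and C1qc at 225.4, 122.9, 111.4 and 219.8 TPM against 70.0 to 111.7 TPM. Libraries 1 and 4 were above all controls for both chains, library 3 for neither and library 2 for C1qc only. Of 13 complement genes 10 lay above 0 and 5 were higher at an unadjusted p under 0.05, against 37.4% and 3.08% of all genes. Their median log2 fold change was 0.43, and 0 passed in limma. The fold changes of C1qa and C1qc were 0.78 ± 0.23 and 0.82 ± 0.24 (SE), with limma adjusted p of 0.614 for each.

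**Figure D2:**
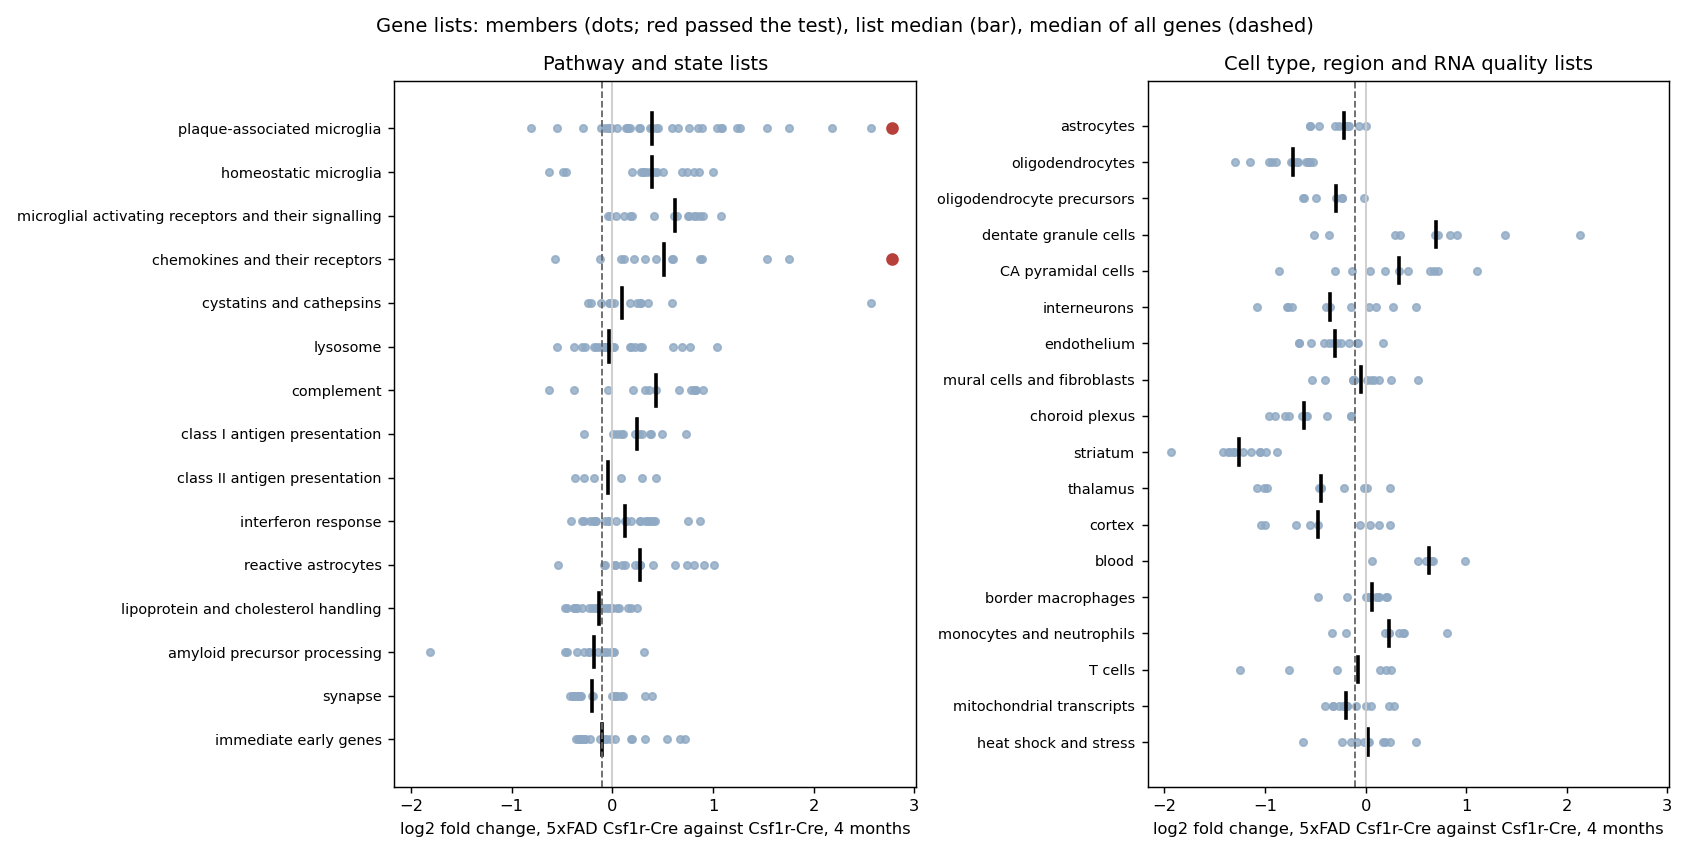
Log2 fold change of 5xFAD Csf1r-Cre against Csf1r-Cre at 4 months for the members of each list (dots; red passed the test), with the list median (black bar) and the median of all genes at -0.10 (dashed line). Ccl6, drawn in 2 lists, is the only red gene. The microglial, complement and dentate medians lie to the right while oligodendrocyte and striatum medians lie to the left. The blood median (0.63, 6 genes, 0 at an unadjusted p under 0.05) lies to the right as well.

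The other lists of immune and glial function had smaller medians. Cystatins and cathepsins had a median log2 fold change of 0.10 and lysosomal genes of -0.04, class I antigen presentation 0.24, class II -0.05 and the interferon response 0.13, where 0 of 26 genes reached an unadjusted p under 0.05. Genes of reactive astrocytes lay above 0 in 15 of 18 cases, against 37.4% of all genes, with a median of 0.27 and 0 passed in limma. Gfap, the intermediate filament of astrocytes, stood at 584.2, 264.5, 272.7 and 501.8 TPM against 140.2 to 334.2 TPM, with libraries 1 and 4 above all controls (limma adjusted p = 0.9). Serpina3n, a secreted protease inhibitor, stood at 38.2, 22.6, 14.7 and 23.7 TPM against 9.57 to 24.8 TPM, and only library 1 was above the controls.

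Apoe (ENSMUSG00000002985), the floxed gene, stood at 3068, 3000, 2825 and 2546 TPM with 5xFAD. The Csf1r-Cre libraries held 2392 to 5434 TPM, with a median of 3149 TPM. All 4 values lay inside the control range. The difference in mean log2(TPM + 0.5) was -0.17, with an exact two-sided permutation p of 0.524 over 210 splits, where 0.00952 is the smallest p that this design allows. Without Csf1r-Cre library 4, the highest, the difference was -0.016 (exact permutation p = 0.873). Lipoprotein and cholesterol genes, a list of 24, had a median log2 fold change of -0.14, and 0 had an unadjusted p under 0.05.

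The mouse App gene overlapped between the groups, at 290.0, 374.7, 507.0 and 205.1 TPM against 272.7 to 742.5 TPM. The table used here lists mouse genes, so this value is that of the mouse gene's row. Thy1 (ENSMUSG00000032011), whose promoter drives the transgenes, stood at 1875, 1488, 1939 and 1587 TPM against 766 to 946 TPM, median 879 TPM. The groups did not overlap, libraries 1 and 4 did not stand out, and the log2 fold change was 0.98 ± 0.28 (SE, limma adjusted p = 0.524). Whether reads from the transgenes were counted in the Thy1 row was not tested. Thy1 passed in limma with median-of-ratios scaling (adjusted p = 0.035), with array weights (0.0307) and in the fit on the compared groups (0.0259). Mme, the amyloid-degrading protease neprilysin, was the one gene of 14 in the amyloid processing list with an unadjusted p under 0.05. It stood at 0.0762, 1.61, 1.80 and 0.562 TPM against 1.67 to 12.0 TPM (log2 fold change -1.81 ± 0.73, SE, limma adjusted p = 0.9), and the groups overlapped. Csf1r-Cre library 2, the highest for Mme, was also the highest in summed striatal markers. Without Csf1r-Cre libraries 1 and 2, left out after the values were seen, the log2 fold change of Mme was -1.38. A link between Mme and these markers was not tested.

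Among genes with small p-values outside these lists, Elk1 and Parvg had their highest levels in other libraries than 1 and 4 alone. Elk1, an ETS transcription factor, stood at 102.5, 115.1, 72.9 and 89.1 TPM against 39.0 to 50.01 TPM, median 40.7 TPM. Parvg, an actin-linked adaptor of blood cells, stood at 27.4, 31.4, 23.6 and 36.5 TPM against 8.85 to 15.4 TPM, median 12.6 TPM. Neither gene overlapped between the groups, and the log2 fold changes were 1.13 ± 0.25 and 1.23 ± 0.27 (SE), each with a limma adjusted p of 0.121. Ly86 and Slc11a1, a partner of a toll-like receptor relative and a phagosomal metal transporter, were highest in libraries 1 and 4. Ly86 stood at 41.7, 20.3, 17.01 and 44.3 TPM against at most 15.8 TPM, and Slc11a1 at 19.0, 6.58, 5.33 and 19.5 TPM against at most 4.50 TPM (limma adjusted p = 0.19 for each).

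Libraries 1 and 4 were the 2 highest of the 4 in 24 of 35 plaque-associated genes, 15 of 18 homeostatic genes, 11 of 16 receptor signalling genes and 7 of 13 complement genes. On the mean log2(TPM + 0.5) of the plaque-associated list, set to 0 at the mean of the Csf1r-Cre libraries, they lay at 0.99 and 0.97, and libraries 2 and 3 at 0.27 and 0.19. The 6 controls lay at -0.20 to 0.35 on that measure, so libraries 2 and 3 were inside their range. On the homeostatic list the 4 values were 0.63, 0.03, 0.14 and 0.56, with controls at -0.45 to 0.41. Sex markers did not divide the libraries in this way: Ddx3y was above 5 TPM in libraries 1, 2 and 4, and Xist was above 1 TPM in library 3. Blood genes were highest in libraries 1 and 4 too, with hemoglobin chain Hba-a1 at 249.9, 151.3, 107 and 492.8 TPM, and their part in the result was not tested. Summed markers of monocytes and neutrophils stood at 2.08 to 9.54 TPM with 5xFAD and 2.03 to 8.36 TPM without, and of border macrophages at 9.39 to 18.0 TPM and 9.13 to 17.2 TPM.

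**Figure D3:**
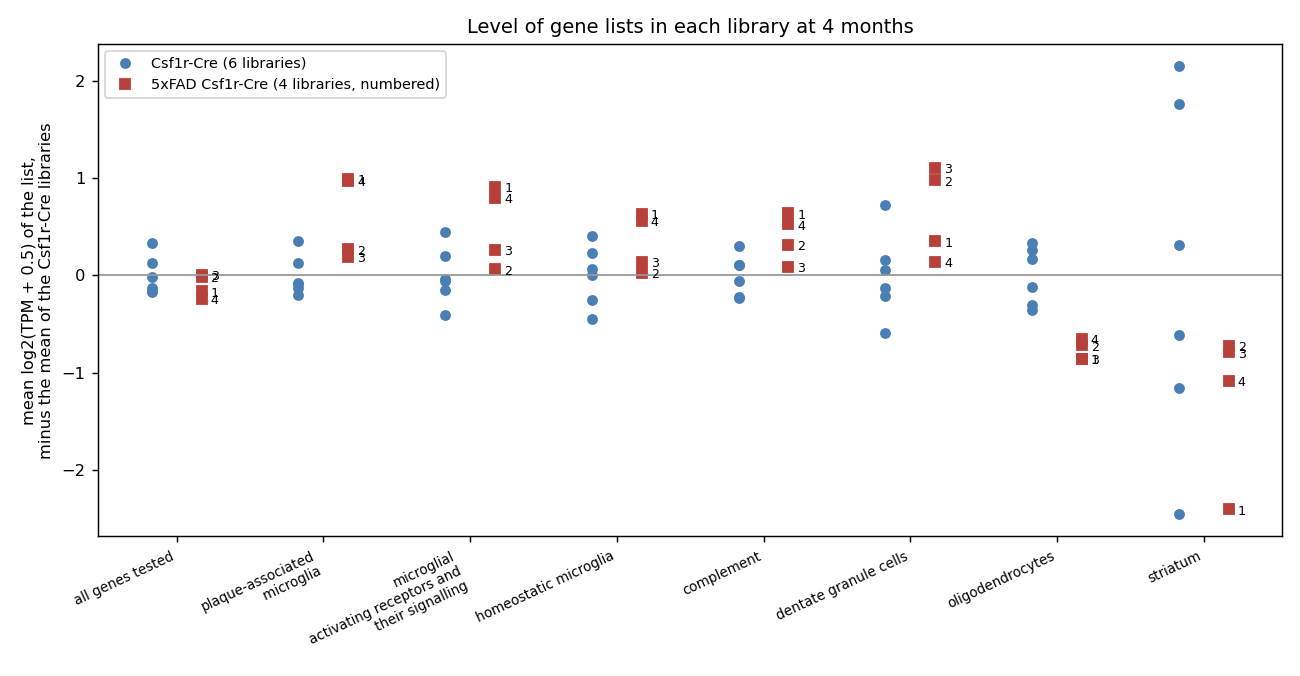
Mean log2(TPM + 0.5) of each list per library, relative to the mean of the 6 Csf1r-Cre libraries (blue circles), with the 4 numbered 5xFAD Csf1r-Cre libraries as red squares. Libraries 1 and 4 lie highest in the microglial and complement lists, libraries 2 and 3 in the dentate list (0.98 and 1.10), and all 4 lie below the controls in the oligodendrocyte list (-0.86 to -0.65).

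No gene in the marker lists of cells other than microglia or of neighbouring regions passed in limma at 4 months. The neuronal marker lists of the hippocampus were present. The dentate granule cell list summed to 336.4 to 616.5 TPM with 5xFAD and 176.5 to 299.6 TPM without. On the mean log2 level of that list the groups overlapped, at 0.14 to 1.10 with 5xFAD and -0.59 to 0.72 without. Oligodendrocyte genes lay below 0 in all 15 cases, with a median log2 fold change of -0.72, 8 at an unadjusted p under 0.05 and 0 passed in limma. Of all 18659 genes tested 11670 lay below 0, and 2.06% were lower at an unadjusted p under 0.05. Mbp, the myelin basic protein, stood at 1661, 1621, 1513 and 1783 TPM against 2461 to 3680 TPM, median 3080 TPM. Mobp, another myelin protein, stood at 199.1, 206.6, 286.9 and 194.9 TPM against 361.8 to 723.3 TPM, median 575 TPM. The groups did not overlap for either gene, and the limma adjusted p was 0.876 and 0.9. Summed over the 15 genes the list reached 3199 to 3710 TPM with 5xFAD and 4908 to 7971 TPM without. In the 5xFAD effect without Cre at 4 months all 15 lay below 0 too (median -0.58, all genes -0.23). So did 14465 of all 18659 genes there, with all 20 genes of the synapse list and all 12 of the endothelium list. With Csf1r-Cre at 12 months all 15 lay above 0 (median 0.73, all genes 0.27), as did 72.7% of all genes. The 12-month Csf1r-Cre library 2 stood apart from its group. It held Mbp at 662 TPM and Mobp at 26.5 TPM, against 2130 to 5142 and 260 to 1071 TPM in the rest of the group. Without it the 12-month median of all genes was 0.12, and the oligodendrocyte list was not recomputed.

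Dentate granule cell genes lay above 0 in 8 of 10 cases, against 37.4% of all genes, with a median log2 fold change of 0.70. C1ql2, a synaptic protein of granule cells, stood at 201.8, 271.8, 163.8 and 127.4 TPM against 23.3 to 59.4 TPM, median 42.0 TPM, without overlap (limma adjusted p = 0.873). In 8 of the 10 genes libraries 2 and 3 were the 2 highest of the 5xFAD libraries. Stxbp6, a regulator of membrane fusion complexes, stood at 65.6, 139.7, 110.0 and 91.9 TPM against 33.1 to 111.3 TPM and overlapped.

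Striatal genes lay below 0 in all 12 cases with a median log2 fold change of -1.26, and Csf1r-Cre libraries 1 and 2 carried most of it. Ppp1r1b, the striatal phosphoprotein DARPP-32, named outside the rule, stood at 971 and 1321 TPM in these 2 libraries, at 63.9 to 415.1 TPM in the other 4 controls and at 74.4 to 200.2 TPM with 5xFAD. Without Csf1r-Cre libraries 1 and 2, left out after the values were seen, the striatal median became -0.24. Ccl6 then had a log2 fold change of 2.62 (limma adjusted p = 0.0347), Cst7 of 2.36 (adjusted p = 0.483) and Trem2 of 1.08 (adjusted p = 0.607), while the plaque-associated, oligodendrocyte and dentate medians were 0.40, -0.62 and 0.73. Choroid plexus genes had log2 fold changes below 0 in all 10 cases (median -0.61), 0 had an unadjusted p under 0.05 and their levels overlapped between the groups, with Ttr, named outside the rule, anywhere from 45.05 to 1471 TPM among the controls. Striatal genes too had 0 at an unadjusted p under 0.05. The part of these markers in the gene results was not tested.

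The effect of 5xFAD with Csf1r-Cre was compared with the effect without it at the same age, in libraries that the 2 effects do not share. The difference between them passed the test for 0 of 18659 genes in limma (0%), and 393 genes (2.11%) had an unadjusted p under 0.05. Over all genes the median of this difference was 0.14, with 71.6% above 0, and -0.03 with median-of-ratios scaling. The effect without Cre had a median of -0.23 over all genes. Dentate granule cell genes had a median of 0.70 with Cre and -0.51 without it, and the difference was above 0 in all 10. For Ccl6 the log2 fold change was 2.70 without Cre and 2.78 with it, a difference of 0.09 with a 95% interval of -1.10 to 1.27. For Cst7 it was 2.94 and 2.57, a difference of -0.37 (-1.75 to 1.01), and for Clec7a 2.05 and 2.18, a difference of 0.14 (-1.18 to 1.46). For Trem2 it was 0.74 and 1.08, a difference of 0.35 (-0.38 to 1.07), and for C1qa 0.55 and 0.78, a difference of 0.23 (-0.38 to 0.84). The limma adjusted p of each difference was 1. These intervals reach beyond 1 log2 unit for Ccl6, Cst7, Clec7a and Trem2, so differences of that size are not shown to be absent.

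Single 5xFAD libraries without Cre were spread as widely. Ccl6 ran from 13.2 to 96.4 TPM there with a median of 29.3 TPM, Cst7 from 2.13 to 20.2 TPM with a median of 4.89 TPM, and Trem2 from 15.3 to 57.9 TPM with a median of 28.8 TPM. Each of the 4 values with Cre lay inside these ranges for Ccl6 and Cst7, and library 4 was above the range for Trem2. The smallest p-values of the difference included those of Bik, a pro-apoptotic BCL2 family member, and Akap7, an anchor of protein kinase A. Bik stood at 0.940, 0.927, 0.253 and 0.904 TPM with 5xFAD and Csf1r-Cre, at most 0.0961 TPM with Csf1r-Cre alone, at most 0.132 TPM with 5xFAD alone and at most 0.314 TPM with neither, which is above 5xFAD Csf1r-Cre library 3. The log2 difference between the 2 effects was 1.22 for Bik and 1.04 for Akap7, both with a limma adjusted p of 1.

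**Figure D4:**
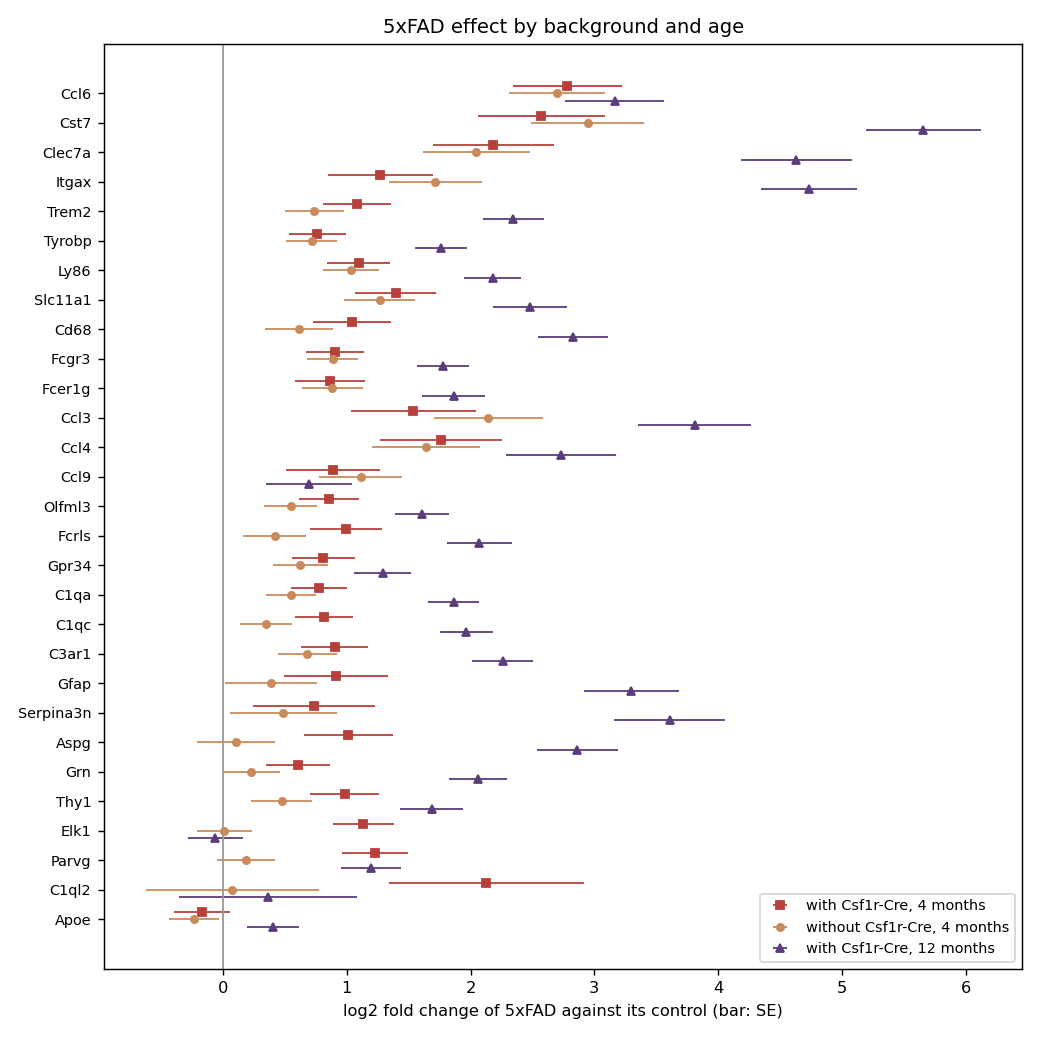
Log2 fold change of 5xFAD against its control, with SE bars, for 29 genes in mice with Csf1r-Cre at 4 months (red squares), without it at 4 months (brown circles) and with it at 12 months (purple triangles). The 2 effects at 4 months lie within about 1 SE of each other for Ccl6, Cst7, Clec7a and Tyrobp, and the 12-month values lie to the right of the 4-month ones by 3.08 for Cst7, 3.46 for Itgax and 0.38 for Ccl6.

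At 12 months, in other libraries, the same contrast called 1124 genes (6.02%), of which 1056 (5.66%) were higher and 68 (0.364%) lower. The median log2 fold change of all genes was 0.27 there, and -0.02 with median-of-ratios scaling, which split 1135 calls into 731 higher and 404 lower. Library 2 of the 12-month Csf1r-Cre controls stood apart, with a median correlation to the other libraries of 0.886 against 0.965 to 0.973 in the rest of its group, and without it 707 genes were called, 662 higher and 45 lower. The values at 12 months without this library and with the other scaling were chosen after the values were seen. At 4 months 639 of the 1056 genes higher at 12 months lay above 0 (60.5%, against 37.4% of all genes), with a median log2 fold change of 0.09. Of them 107 were higher at an unadjusted p under 0.05 (10.1%, against 3.08% of all genes) and 6 lower (0.57%, against 2.06%). The 68 genes lower at 12 months had a median of 0.06 at 4 months, with 3 higher and 1 lower at an unadjusted p under 0.05. Of the 35 plaque-associated genes 28 passed at 12 months against 1 at 4 months.

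The difference of the effect between the ages passed for 83 genes in limma (0.445%), 79 (0.423%) larger and 4 (0.0214%) smaller at 12 months. The median of this difference over all genes was 0.38, with 73.3% above 0, and 0.02 with median-of-ratios scaling, which called 57. Itgax had a log2 fold change of 1.27 at 4 months and 4.73 ± 0.39 (SE) at 12 months, a difference of 3.46 (95% interval 2.30 to 4.62, limma adjusted p = 0.00147). For Cst7 the difference was 3.08 (1.68 to 4.48, adjusted p = 0.0294), for Cd68 1.79 (0.94 to 2.63, adjusted p = 0.0403) and for Gfap 2.39 (1.24 to 3.53, adjusted p = 0.0425). Without 12-month Csf1r-Cre library 2 the count was 53, and the limma adjusted p was 0.00326 for Itgax, 0.0488 for Cst7, 0.064 for Cd68 and 0.064 for Gfap. With median-of-ratios scaling Itgax kept its call (3.17, adjusted p = 0.00469), while Cst7 (2.79, adjusted p = 0.0613), Cd68 (1.28, adjusted p = 0.118) and Gfap (1.88, adjusted p = 0.0824) lost it. In a fit on the 4 compared groups alone Itgax missed it as well (adjusted p = 0.0524). For Ccl6 the difference was 0.38 (-0.81 to 1.58, limma adjusted p = 0.697) and -0.12 with median-of-ratios scaling, with 47.9 ± 38.9 TPM (SD, n = 4) at 4 months and 71.4 ± 31.2 TPM (SD, n = 5) at 12 months in the 5xFAD libraries. Hpse, the heparan sulfate cleaving enzyme heparanase, and Plau, the urokinase plasminogen activator, were among the smallest p-values of this difference. Hpse was 0.618 ± 0.398 TPM (SD, n = 4) in 5xFAD libraries at 4 months and 9.33 ± 6.73 TPM (SD, n = 5) at 12 months, and Plau 1.01 ± 0.23 and 8.90 ± 4.33 TPM. The count of 83 depended on the settings: it fell to 0 in a fit on the 4 compared groups alone and to 3 with a pseudocount of 0.1. It was 8 without 12-month 5xFAD Csf1r-Cre library 2 and 416 without library 3 of that group, the lowest and highest counts with 1 library left out.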

How the data were processed

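RNA-seq of mouse hippocampus was analysed from 1 deposited table of TPM values with 54532 genes. Per the submitters' processing notes, the authors used STAR, featureCounts, edgeR and limma with mm10; the sources used here do not give versions, strand use or handling of multiply mapped reads. No count test was run on the authors' TPM. Of 33023 genes above 0, 33020 gave whole reads in every library within a tolerance of 0.02, and these reads only describe depth.

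Columns were joined to samples by their description and grouped by title. log2(TPM + 0.5) of the 18659 genes with at least 0.5 TPM in at least 3 libraries was fitted with limma 3.58.1 in R 4.3.3 (1 mean per group, 45 libraries, eBayes with trend), two-sided, with Benjamini-Hochberg adjustment and a threshold of 0.05. This scale understates the change of low genes. Apoe was tested by exact permutation. Named genes were Apoe, App, Thy1, Csf1r, called genes, the 10 smallest p-values in each direction with a mean of at least 1 TPM (predicted and sex-linked genes left out), the smallest p-values of each list (up to 4 for biology lists, 2 for others) and 5 in each other comparison; the text gives a part of them, and certain others are not reported here. The members, lists and motif were chosen with earlier results of these data known. Genes with near-identical copies or antisense partners are uncertain. In simulated data for 5xFAD with Csf1r-Cre at 4 months (18659 genes), 46% of changes of 1 and 84% of changes of 2 on the log2 scale were recovered, and 6 of 136 calls were unchanged genes. The simulated noise was independent between genes, with 1 spread per gene in all groups. Microglial genes that rise together in libraries 1 and 4 were not simulated, so these rates need not hold for the data.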

Additional observations from a re-analysis of the deposited data

Results flagged for a closer look

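In 5 of 100 groups of values tested, 1 library stood far from the rest of its group, where chance gives about 1 in 20. Ccl9, a chemokine, was 8.11 TPM in Csf1r-Cre library 6 and 2.16 to 3.15 TPM in the other 5. C5ar1, a complement receptor, was 0.785 TPM in Csf1r-Cre library 4 and 0.113 to 0.266 TPM in the others. Mobp was 286.9 TPM in 5xFAD Csf1r-Cre library 3 and 194.9 to 206.6 TPM in the others. Prr18 was 34.3 TPM in 5xFAD Csf1r-Cre library 1 and 30.4 to 30.6 TPM in the others. Bik was 0.253 TPM in 5xFAD Csf1r-Cre library 3 and 0.904 to 0.940 TPM in the others.

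The effect of 5xFAD with Csf1r-Cre was compared between 12 and 4 months by a limma test of the difference. It was larger at 12 months for 6 of the 50 genes followed under other settings, which do not include Hpse and Plau. Over all 18659 genes it was larger for 79 (0.423%). Many of the 50 were chosen by small p-values in these data, Itgax by that of this difference, so the 6 are no test. The log2 difference was 3.08 for Cst7 (adjusted p = 0.0294), 3.46 for Itgax (0.00147), 1.79 for Cd68 (0.0403), 2.39 for Gfap (0.0425), 2.87 for Serpina3n (0.0372) and 1.46 for Grn, the lysosomal protein progranulin (0.0449). Without 12-month Csf1r-Cre library 2, which stood apart from its group, Cst7, Itgax and Grn kept their calls and Cd68, Gfap and Serpina3n lost them (adjusted p = 0.064, 0.064 and 0.0586). With median-of-ratios scaling Itgax alone of the 6 kept its call, and a fit on the 4 compared groups alone called 0 genes for this difference.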

How the results depend on the processing

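The count of 1 gene at 4 months became 2 with no filter (Ccl6 and Gm12052), 3 with median-of-ratios scaling (Ccl6, Cst7 and Thy1), 7 in a fit on the compared groups (without Ccl6), 2 in a fit on the 4-month groups (Bik and Rasl10a), 12 with array weights and 2 without Csf1r-Cre libraries 1 and 2. Leaving out 1 library gave 0 to 5: 0 without 5xFAD Csf1r-Cre library 1, 1 without library 4 (Mir491, not Ccl6), 4 and 5 without libraries 2 and 3, and 2 without Csf1r-Cre library 4. The difference by Csf1r-Cre stayed at 0 calls under every alternative run. The 83 calls of the difference between ages became 3 and 152 with pseudocounts of 0.1 and 1, 46 with no filter, 0 in a fit on the compared groups, 606 with array weights and 8 to 416 with 1 library left out (changed over 1.5 times without Csf1r-Cre libraries 2, 4 or 6 or 5xFAD Csf1r-Cre libraries 2, 3 or 4 at 4 months, and Csf1r-Cre libraries 2, 3 or 5 or 5xFAD Csf1r-Cre libraries 1, 2, 3 or 4 at 12 months); median-of-ratios scaling gave 57, of which 39 were shared. Samples with the same number did not deviate together (correlations 0.132, -0.018, -0.211 and -0.371 for numbers 1 to 4). No pairing by number was seen, but correlations of so few pairs cannot exclude one. With the replicate block the counts were 2 (Ccl6 and Clec7a), 0 and 60. The causes were not tested.

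Over the 50 genes followed and 24 alternatives, 1174 results kept their direction and side of the threshold, 21 passed only under the alternative and 4, all of Ccl6, were lost; Bik had no value with the filter of 1 TPM in 4 samples. The median log2 fold change of all genes was -0.10, -0.026 with median-of-ratios scaling and -0.13 after rescaling without Gm23935 and mitochondrial transcripts. Genes near 1 TPM rest on few reads, and the 4 libraries with 5xFAD limit the precision of every value.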
